A study of Mus musculus with 8 samples.

Results

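The V and J gene segments of T-cell receptors (TCRs) were counted in single CD4+ T cells of the mouse meninges, the membranes that enclose the brain. The members are all values of the V and J segment calls in productive TRA (alpha chain) and TRB (beta chain) contigs of the cells that carry the sample's hashtag. They come to 165 segments (88 TRAV, 43 TRAJ, 22 TRBV and 12 TRBJ) of the 168 in all productive contigs, and 161 of them were seen in both replicates. Replicate 1 came from Foxp3-GFP mice, a reporter strain for the regulatory T cell (Treg) factor Foxp3, and replicate 2 from B6.WT mice. No treatment was given to either, and age and the number of mice per sample are not given in the sources used here. Both were sorted as CD45+ CD3+ CD4+ cells after perfusion. The study also holds hippocampal libraries, which have no TCR data and were not used here. Genotype, library and software version differ together between the replicates, so these cannot be told apart in any difference between them.

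A TCR chain is built in the thymus by joining a V segment to a J segment, with a D segment between them in the beta chain. Bases are removed and added at the joint, and the stretch that spans it, the third complementarity-determining region (CDR3), makes most of the contact with the presented peptide. The alpha locus can rearrange repeatedly on the same chromosome, each time joining a TRAV further from the TRAJ cluster to a TRAJ further away on the other side. A few alpha chains are nearly invariant: TRAV11 joined to TRAJ18 marks natural killer T cells that see lipids on CD1d, and TRAV1 joined to TRAJ33 marks mucosal-associated invariant T cells that see vitamin B metabolites on MR1.

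Of 8509 barcodes with a productive contig in replicate 1, 1504 carried the sample's hashtag, and of 25370 in replicate 2, 2677 did. They gave 1457 and 2334 TRA contigs and 1552 and 2654 TRB contigs, with a median of 6 and 8 UMIs a contig. A UMI of the T-cell gene Cd3e was found in 96.1% and 87.8% of these cells, of Cd4 in 46.1% and 30.5% of Cd8a in 0.400% and 0.0765% and of Cd8b1 in 3.94% and 1.65%, at median depths of 3023 and 1693 UMIs a cell. Any of 3 B cell genes was seen in 0.534% and 0.459% and any of 3 myeloid genes in 2.07% and 1.91%. Of the gamma-delta constant genes, Tcrg-C1 was at 0 in both and Trdc was seen in 0.200% and 0.230%. Cells with 2 or more TRB chains made up 6.18% and 6.69%. No doublet caller was run: these cells stay in the segment usage, invariant chain and replicate values, and were left out of the comparisons of Foxp3 and expansion classes. The gene tables of the replicates shared 554 barcodes, of which 5 were tagged cells with a TCR, and none of those carried a rearrangement found in both replicates. Brackets below hold exact 95% binomial intervals, which cover counting error only.

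The most used alpha segments were those of the invariant natural killer T chain, and its sequence shows how little of it varied. TRAV11 (ENSMUSG00000096615.1, chr14:53519303-53519859 of mm10, plus strand) was found in 134 of 1457 TRAV counts in replicate 1, 9.20% (7.76 to 10.8), and 453 of 2329 in replicate 2, 19.5% (17.9 to 21.1). TRAJ18 (chr14:54200777-54200842, plus strand) took 10.6% (9.02 to 12.2) and 21.6% (19.98 to 23.4) of TRAJ counts. The joined chain TRAV11-TRAJ18 was carried by 130 of 1305 cells with a TRA, 9.96% (8.39 to 11.7), and by 441 of 2157, 20.4% (18.8 to 22.2). The share in replicate 2 was the higher one and the intervals did not overlap, with 1 sample of each kind. All 130 and 441 CDR3s were 15 amino acids long. The 5 most frequent nucleotide forms are shown because they differ at positions 11 and 12 alone, counted from 1 at the 5′ end and printed in capitals.
variant 1: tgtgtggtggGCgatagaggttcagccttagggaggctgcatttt
variant 2: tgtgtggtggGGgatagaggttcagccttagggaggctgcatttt
variant 3: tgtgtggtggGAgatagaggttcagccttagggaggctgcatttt
variant 4: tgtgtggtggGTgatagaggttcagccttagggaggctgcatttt
variant 5: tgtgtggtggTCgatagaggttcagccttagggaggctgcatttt
Variants 1 to 4 encode the same amino acids and variant 5 does not. Variant 1 made up 34.6% and 35.8% of these contigs in replicates 1 and 2, variant 2 27.7% and 29.5%, variant 3 17.7% and 17.0%, and variant 4 8.46% and 12.02%. The order of these 4 was the same in both. The protein they encode was in 118 of 130 contigs, 90.8% (84.4 to 95.1), and in 422 of 441, 95.7% (93.4 to 97.4). The ends of the germline segments, from the GENCODE M21 transcripts of mm10, are printed with the bases found in variant 1 in capitals.
TRAV11 germline end: TGTGTGGTGGGCG
TRAJ18 germline start: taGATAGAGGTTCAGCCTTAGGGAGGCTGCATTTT
On average 0.569 and 0.714 bases of these CDR3s matched neither germline segment, against 2.76 and 2.92 in the alpha chains of the other cells.

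The beta chains of these cells were the other part of the pattern. TRBV13-2 is the main beta segment paired with the invariant chain in mice, and TRBV29 and TRBV1 are others. The deposited tables name most TRBV13-2 contigs with a fused name, TRBV12-2+TRBV13-2, which is 1 of the 22 TRBV values, and both names were summed here. Of the TRB contigs of TRAV11-TRAJ18 cells, 64 of 140 in replicate 1 used TRBV13-2, 45.7% (37.3 to 54.3), and 219 of 455 in replicate 2, 48.1% (43.5 to 52.8). In the other cells it was 10.6% (8.998 to 12.3) and 13.7% (12.3 to 15.2). TRBV29 took 20% (13.7 to 27.6) and 11.2% (8.46 to 14.5) of the contigs of TRAV11-TRAJ18 cells, against 1.98% and 3.64% of the others. TRBV1 took 5% and 8.79%, against 6.37% and 6.87% of the others, so its direction differed between the replicates. TRBV13-2 and TRBV29 were thus more frequent beside the invariant chain in each replicate, and TRBV1 was not. TRBV13-1, not among the segments fixed beforehand, was also higher there, with 10.7% and 13.2% against 8.14% and 7.59%. TRBV13-3 was at 4.29% and 7.25% against 3.97% and 6.14%. Every remaining TRBV was lower there in both replicates. With 2 replicates an exact test cannot go below p = 0.33. TRAV11D, a near copy of TRAV11, was not called in any tagged cell, which allows up to 0.206% and 0.129% of TRA contigs. TRAV1 was found in 12 and 10 cells and TRAJ33 in 34 and 50, but never together: 0 of 1457 and 0 of 2334 TRA contigs joined them, which allows a share of up to 0.206% and 0.129%.

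In the other cells no alpha segment stood so far above the rest. TRAJ18 itself was at 1.76% and 3.34% of TRAJ counts with the TRAV11-TRAJ18 cells left out. With the same cells left out, TRAJ31 was the most used TRAJ, at 5.35% and 5.33%. Over all tagged cells TRAJ31 came after TRAJ18, with 4.83% and 4.34% of TRAJ counts in replicates 1 and 2. Next were TRAJ22 (4.07% and 4.13%), TRAJ23 (3.86% and 3.70%) and TRAJ40 (3.86% and 3.31%). Among the TRAV segments of all tagged cells, TRAV7D-2 followed TRAV11 with 4.26% and 3.69%. Then came TRAV6-6 with 3.91% and 2.28%, TRAV4-4-DV10 with 3.36% and 2.66% and TRAV4D-4 with 3.09% and 2.83%. Below the leading segment, the intervals of neighbours in these orders overlapped. Duplications in the TRAV locus make many of these segments nearly alike in sequence: 43 of the 88 TRAV are D or N copies, and a cell's assignment among copies of a subgroup is uncertain. Summed by subgroup, TRAV6 (13 segments) took 16.5% and 13.1% and TRAV7 (12 segments) 14.07% and 14.04%. The least used were TRAV18 and TRAV7-2, each in 1 cell of replicate 2 alone.

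Beta segment use was led by TRBV13-2 under its fused name (12.7% and 18.1% of TRBV counts), part of which lay in the invariant cells. Without them it was 9.67% and 12.4%. TRBV13-1 followed with 8.41% (7.07 to 9.90) and 8.48% (7.44 to 9.60), TRBV3 with 7.50% and 6.85%, TRBV19 with 8.73% and 5.37%, and TRBV5 with 6.79% and 6.92%. TRBV1, the segment farthest from the D and J clusters, was at 6.27% and 7.19%. TRBV31 lies beyond the constant genes on the opposite strand and joins by inversion (chr6:41557691-41558452, minus strand), and was used in 4.53% and 4.50%. TRBV10, which the annotation lists as a pseudogene, was called in productive contigs of 69 and 96 cells, 4.46% and 3.63%. Among J segments TRBJ2-7, the last of its cluster, was the highest with 17.5% (15.6 to 19.5) and 18.6% (17.2 to 20.2), ahead of TRBJ2-5 (12.9% and 13.7%) and TRBJ1-1 (11.8% and 11.3%). TRBJ2-4 took 8.90% and 9.20%, TRBJ2-1 9.81% and 8.11%, TRBJ2-3 7.34% and 8.41%, TRBJ1-4 7.34% and 7.05% and TRBJ1-3 5.91% and 6.21%. TRBJ2-2 (6.95% and 5.08%), TRBJ1-2 (5.52% and 6.14%), TRBJ1-6 (3.51% and 2.69%) and TRBJ1-5 (2.53% and 3.52%) were the lowest by the mean of the replicates.

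**Figure D1:**
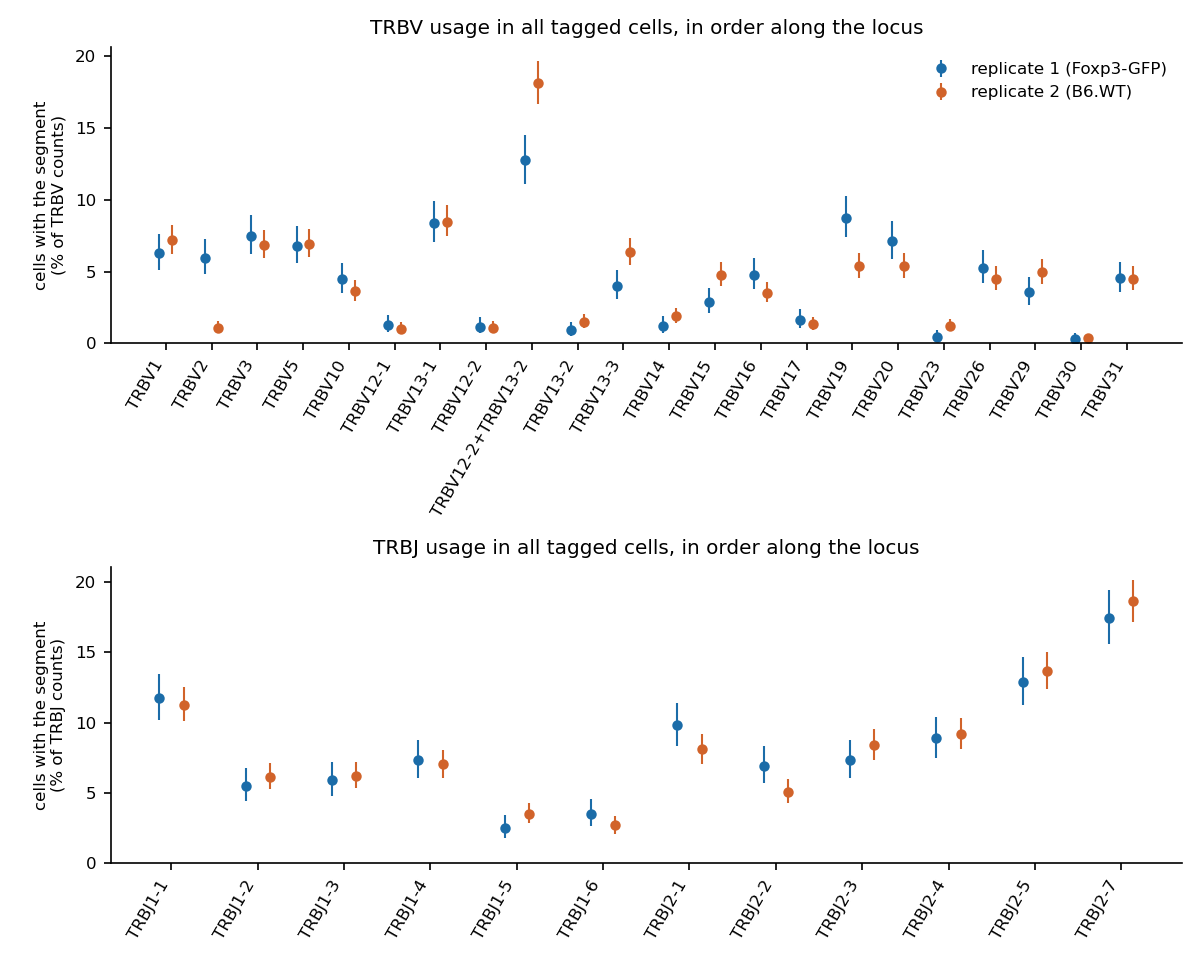
Share of TRBV (top) and TRBJ (bottom) counts in all tagged cells, in percent of the locus total, for replicate 1 (blue) and replicate 2 (orange), with segments in order along the locus. Points are shares and bars exact 95% binomial intervals; TRBV2 is the segment whose replicates lie farthest apart by ratio (5.95% and 1.06%), and TRBJ2-7 the highest TRBJ in both.

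Beta rearrangements followed the layout of the locus. The TRBJ1 cluster took 36.4% (34.0 to 38.9) and 36.9% (35.0 to 38.7) of TRB contigs, and the TRBJ2 cluster 63.6% and 63.1%. Every TRBJ1 contig with a named constant gene carried TRBC1, which lies next to that cluster (556 and 886 contigs), and every TRBJ2 contig with one carried TRBC2 (983 and 1608). No contig crossed them.

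Alpha rearrangements paired by position in the same way in both replicates. TRAV segments were split into sections of 22 along the locus, from TRAV1, the farthest from the TRAJ cluster, to TRAV21-DV12, the closest. TRAJ segments were split into the 22 on the TRAV side (TRAJ58 to TRAJ31) and the 21 beyond. TRAV11-TRAJ18 cells were left out and each rearrangement was counted once. In the section next to the TRAJ cluster, 84.1% (79.6 to 87.9) and 82.2% (78.1 to 85.8) of rearrangements used a TRAJ of the TRAV side. The share was 54.1% and 44.5% in the third section, 30.8% (25.7 to 36.3) and 27.3% (23.4 to 31.5) in the second and 38.8% (31.9 to 46.0) and 38.1% (32.2 to 44.2) in the farthest. The fall from the closest to the second section was larger than the gap between replicates, and the farthest section lay above the second in both. Copies of a TRAV subgroup can lie in different sections, so an uncertain call can move a rearrangement between sections. The intervals do not cover this. Across rearrangements the start positions of V and J correlated with r = -0.44 (n = 1121) and -0.39 (n = 1671). These points share segments and a library and are not independent.

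**Figure D2:**
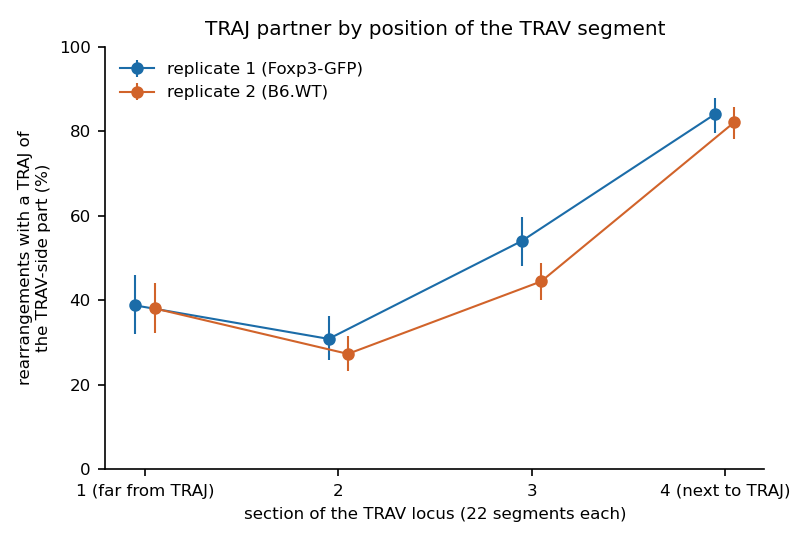
Percent of distinct alpha rearrangements that used a TRAJ of the TRAV-side group, by section of the TRAV locus (x axis, 22 segments each), for replicate 1 (blue) and replicate 2 (orange), with exact 95% binomial intervals. The section next to the TRAJ cluster stands at 84.1% and 82.2%, the second section at 30.8% and 27.3%.

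Shares agreed between the replicates most closely for TRBJ. Segments of a locus share its total and the libraries, so correlations are given as descriptions. The loci also differ in cells per segment. The median share of a segment was 7.53% in TRBJ, 4.20% in TRBV, 1.93% in TRAJ and 0.858% in TRAV. Segments with fewer cells carry more counting error, and its part in the order of the loci was not tested. Across segments Pearson's r (Spearman's rho) was 0.97 (0.95) over 12 TRBJ, 0.90 (0.88) over 43 TRAJ, 0.87 (0.78) over 88 TRAV and 0.86 (0.79) over 22 TRBV. Without the TRAV11-TRAJ18 cells r was 0.97, 0.87, 0.79 and 0.83. Of the 135 segments with at least 20 cells in all, 21 differed by more than 2-fold between replicates, 15.6%, 13 of them higher in replicate 1. They were 14 TRAV, 5 TRAJ, 2 TRBV and no TRBJ, and the same difference in cells per segment applies to these counts. The 6 to be named, 3 in each direction, held 22 to 120 cells each.

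TRAV11 and TRAJ18, the segments of the invariant chain, were the most counted of the 21, with log2 ratios of -1.08 and -1.04. TRBV2 had the largest ratio among the TRBV. It was used by 92 of 1546 counts in replicate 1, 5.95% (4.82 to 7.25), and 28 of 2643 in replicate 2, 1.06% (0.705 to 1.53), a log2 ratio of 2.49 (1.89 to 3.09). With each rearrangement counted once, 80 against 28, the log2 ratio was 2.35. It was present among Foxp3-negative cells (7.24% and 1.73%) and among single clonotypes (7.92% and 1.76%) as well. The other 2 named on that side were TRAV6-2 (18 and 5 cells, log2 ratio 2.52), whose ratio was 1.27 when its 8 and 5 rearrangements were counted, and TRAJ5 (17 and 6 cells, 2.18). On the other side stood TRAV12-1 (4 and 18 cells, log2 ratio -1.49, interval -3.05 to 0.07), TRAV7-5 (10 and 44 cells, -1.46) and TRBV23 (7 and 32 cells, -1.42). TRBV23 reached -0.82 over rearrangements, and its largest clonotype in replicate 2 held 10 cells.

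**Figure D3:**
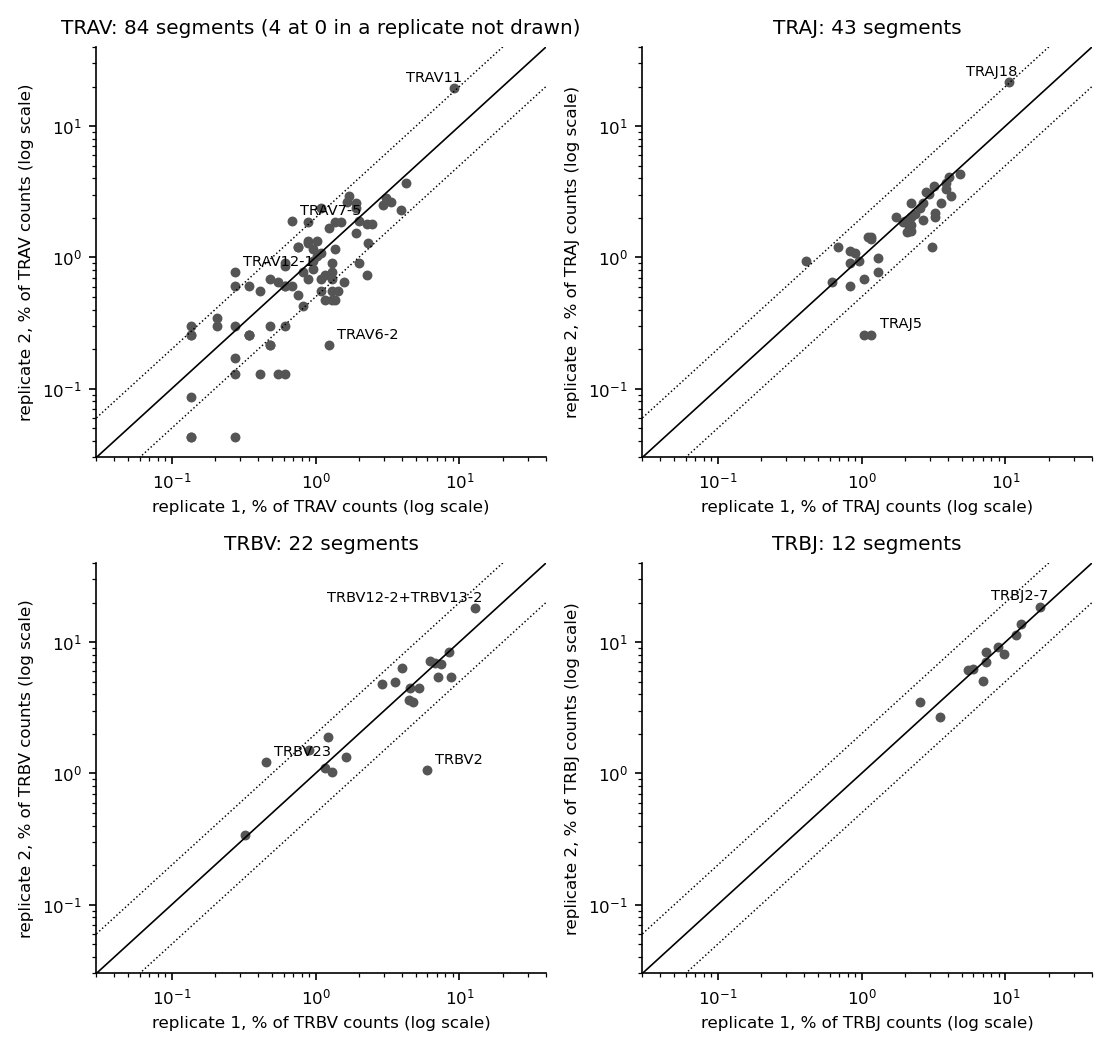
Share of each segment in replicate 1 (x axis) against replicate 2 (y axis), in percent of the locus total on log scales, for TRAV, TRAJ, TRBV and TRBJ. The solid line marks equal shares and the dotted lines a 2-fold difference; TRBV2 (5.95% against 1.06%) lies far below the line, while no TRBJ lies outside the dotted lines.

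The next question was whether Treg cells use other segments than the remaining CD4+ T cells. Cells of both classes had 1 TRB and 1 or 2 TRA chains, and TRAV11-TRAJ18 cells were left out. A Foxp3 UMI was found in 78 of 1031 cells in replicate 1, 7.57%, and 208 of 1305 in replicate 2, 15.9%. The share among TRAV11-TRAJ18 cells, a cell type that should mostly lack Foxp3, was taken as the background: 2 of 108, 1.85% (0.225 to 6.53), and 18 of 366, 4.92% (2.94 to 7.66), at median depths of 3572.5 and 1904 UMIs against 3009 and 1731. The Foxp3-positive class can hold cells at this background, and Foxp3-negative cells include Treg cells with no UMI.

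No segment differed between the classes past an adjusted p of 0.05. edgeR's quasi-likelihood test called 0 of 143 segments with at least 10 cells (0%), 7 had an unadjusted p under 0.05, and DESeq2 called 0 with 2 under 0.05. The 5 to be named, which had the smallest p and the same direction in both replicates, all had an adjusted p of 0.794. TRAJ33, the J segment of the invariant MR1-restricted chain but here with other TRAV, was found in 6 and 10 Foxp3-positive cells, 6.82% and 4.29% of TRAJ counts, against 2.30% and 1.95% of Foxp3-negative cells. The fitted log2 difference was 1.27 (SE 0.533). TRAJ33 and the other 4 were chosen by p and direction, so a gap between the groups follows in part from the choice. TRBV10 was at 1.28% and 1.92% (1 and 4 cells) against 5.04% and 4.38%, a log2 difference of -1.43 (SE 0.621). The difference was -0.55 at a hashtag margin of 2, -0.60 with any number of chains and -1.21 with rearrangements counted once. In replicate 1, a single clonotype held 14 of the 48 Foxp3-negative cells with TRBV10. TRAJ50 was in 1 Foxp3-positive cell of 321 over both replicates, 0.312%, and in 57 of 2223 Foxp3-negative ones, 2.56%. The ratio was 0.121, with a 95% counting interval of 0.00302 to 0.705. In replicate 1, a single clonotype held 11 of the 29 Foxp3-negative cells with TRAJ50. The log2 difference of TRAJ50 was -2.98 in the fit and -2.70 with rearrangements counted once. TRAV9N-4 and TRAV13-4-DV7 were at 0 of 321 TRAV counts, against 1.34% and 1.12% of Foxp3-negative ones. With a floor of 3 counts over both replicates (0.935%), the pooled shares were at least 1.44-fold and 1.20-fold lower. These bounds and the interval of TRAJ50 pool cells over the replicates and cover counting error alone. They count the cells of a clonotype as independent, although such cells share a rearrangement. They do not show a difference between the classes. Shares of TRBV1 were 8.97% and 6.73% against 6.09% and 5.83%, with an adjusted p of 0.976. TRAJ18 joined to other TRAV took 4.55% and 4.29% (4 and 10 cells) against 1.34% and 2.88%, with an adjusted p of 0.794.

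With TRAV11-TRAJ18 cells kept and the replicate as a block, an alternative chosen after seeing the data, edgeR called 1 of 144 segments. It was TRAV11, lower in Foxp3-positive cells by a log2 difference of -1.68 (SE 0.417, adjusted p = 0.0129). Without the block the difference was -1.50 and the adjusted p 0.831. The Foxp3 shares of the TRAV11-TRAJ18 cells given above are the same measurement.

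Expanded clonotypes were compared with single ones in the same way. A clonotype is the set of cells with the same TRB V segment, J segment and CDR3 nucleotides, and each was counted once. Replicate 1 held 881 clonotypes in 1031 cells, 73 of them with 2 or more cells, and replicate 2 held 1200 in 1305 cells, 61 of them with 2 or more. The expanded ones took 21.6% (19.2 to 24.3) and 12.7% (10.96 to 14.7) of the cells. Most were small: 47 and 42 had 2 cells, and the largest had 14 and 10.

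The 3 largest clonotypes of each replicate used different V and J combinations, and none of the 6 was found in the other replicate. Their CDR3 sequences are shown with the bases that match neither germline V nor J in capitals, which for TRB include the D segment. The germline of TRBV10 could not be matched, so that sequence has no capitals.
replicate 1, clonotype 1, TRBV10-TRBJ2-7: tgtgccagcagccactatgaacagtacttc
replicate 1, clonotype 1, TRAV7D-4-TRAJ37: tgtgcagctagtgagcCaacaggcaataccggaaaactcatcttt
replicate 1, clonotype 2, TRBV20-TRBJ2-1: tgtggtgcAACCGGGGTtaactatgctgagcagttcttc
replicate 1, clonotype 2, TRAV6N-7-TRAJ39: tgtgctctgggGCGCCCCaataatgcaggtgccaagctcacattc
replicate 1, clonotype 3, TRBV20-TRBJ1-3: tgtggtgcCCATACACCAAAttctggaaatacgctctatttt
replicate 1, clonotype 3, TRAV6-5-TRAJ50: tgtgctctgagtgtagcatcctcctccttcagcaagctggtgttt
replicate 2, clonotype 1, TRBV23-TRBJ2-1: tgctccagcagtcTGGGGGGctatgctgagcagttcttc
replicate 2, clonotype 1, TRAV6-7-DV9-TRAJ45: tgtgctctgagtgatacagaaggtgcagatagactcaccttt
replicate 2, clonotype 2, TRBV13-3-TRBJ2-5: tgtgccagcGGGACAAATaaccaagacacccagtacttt
replicate 2, clonotype 2, TRAV7-4-TRAJ27: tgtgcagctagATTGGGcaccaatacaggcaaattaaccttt
replicate 2, clonotype 3, TRBV19-TRBJ1-1: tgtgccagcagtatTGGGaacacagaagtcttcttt
replicate 2, clonotype 3, TRAV10-TRAJ40: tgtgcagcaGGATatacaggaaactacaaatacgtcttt
In replicate 1 they held 14, 13 and 11 cells, of which 12, 13 and 11 carried the alpha chain shown. In replicate 2 they held 10, 8 and 6 cells, of which 9, 7 and 6 did. A Foxp3 UMI was found in 2 of the 6 cells of the third clonotype of replicate 2 and in no cell of the other 5 clonotypes.

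No segment differed between expanded and single clonotypes past an adjusted p of 0.05. edgeR's quasi-likelihood test called 0 of 140 segments (0%), 4 had an unadjusted p under 0.05, and DESeq2 called 0 with 1 under 0.05. All of the 5 to be named had an adjusted p of 0.788. TRBJ1-1 was in 12 and 12 expanded clonotypes, 16.4% and 19.7%, against 12.005% and 8.52% of single ones, a log2 difference of 0.82 (SE 0.374). TRAV13D-2 was in 4 and 5, 5.48% and 8.20%, against 1.49% and 3.25%, a difference of 1.45 (SE 0.688). TRBJ2-3 was in 1 and 4, 1.37% and 6.56%, against 9.65% and 9.31%, a difference of -1.33 (SE 0.613) that was -0.51 without replicate 1, -2.82 without replicate 2 and -0.28 with any number of chains. TRAJ31 was in 2 of 134 expanded clonotypes, 1.49%, against 116 of 1947, 5.96%, a ratio of 0.251 with a counting interval of 0.0300 to 0.926. It was at 0 in replicate 1 (6.19% of single ones) and at 3.28% against 5.79% in replicate 2, so the log2 difference was -1.98 in the fit and -0.82 without replicate 1. TRAJ17 was in 0 of 134 against 56 of 1947, 2.88%, at least 1.28-fold lower at the floor of 3 counts over both replicates. This bound and the interval of TRAJ31 pool clonotypes over the replicates and cover counting error alone. They do not show a difference between the classes. All 5 were chosen by their p and direction, so a gap between the groups follows in part from the choice. Between the replicates, the shares over expanded clonotypes correlated with r = 0.25 over TRAV, 0.18 over TRAJ, 0.51 over TRBV and 0.75 over TRBJ, against 0.78, 0.87, 0.85 and 0.92 over single clonotypes, which are more numerous.

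**Figure D4:**
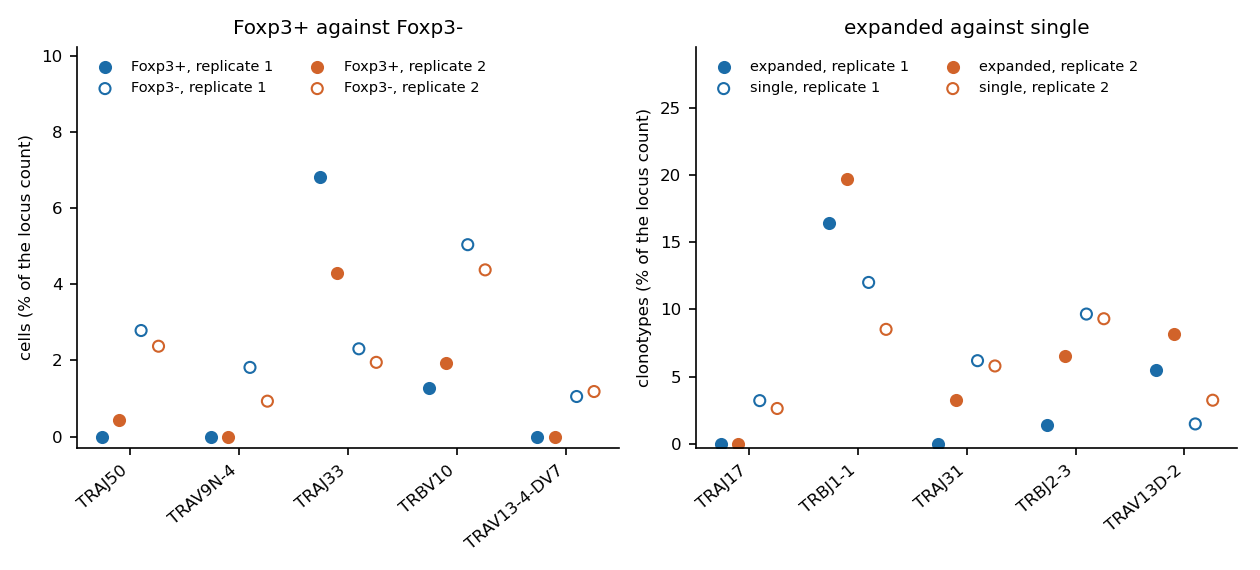
Shares of the 5 named segments of each comparison, in percent of the locus total, with 1 point per replicate (blue 1, orange 2): Foxp3-positive cells (filled) against Foxp3-negative cells (open) at left, and expanded (filled) against single (open) clonotypes at right. The 10 were chosen by their p and direction, and none passed the adjusted p of 0.05.

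Few rearrangements were found in both replicates. By amino acids, 25 alpha chains (V, J and CDR3) were shared, 2.26% of those of replicate 1 and 1.52% of those of replicate 2, and 12 beta chains, 1.01% and 0.616%. TRAV11-TRAJ18 cells were left out of these counts. By nucleotides 16 alpha and 3 beta chains were shared. The alpha chains shared by amino acids had 39 nucleotide forms over both replicates, and not each form was itself found in both. These forms had a median of 1 base that matched neither germline segment, against 3 in the others. At most 1 such base was found in 56.4% of them, against 28.8%. The 23 nucleotide forms of the shared beta chains had a median of 8 such bases against 10.

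Only 2 alpha-beta pairs were shared by amino acids. The first joined TRBV12-1-TRBJ1-4 to TRAV7D-2-TRAJ9 and had the same nucleotides in 1 cell of each replicate, with 5 and 16 UMIs of TRB and 62.4 and 49.2 times the counts of the next hashtag. The other joined TRBV2-TRBJ1-4 to TRAV14D-1-TRAJ13. It is shown because 3 cells reached the same beta amino acids through different bases, which are in capitals where they match neither germline segment.
replicate 1, cell with 2907 UMIs, TRB: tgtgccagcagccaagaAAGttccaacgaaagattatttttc
replicate 1, cell with 3583 UMIs, TRB: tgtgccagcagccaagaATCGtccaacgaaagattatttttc
replicate 2, cell with 2555 UMIs, TRB: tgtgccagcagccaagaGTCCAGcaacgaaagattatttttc
all 3 cells, TRA: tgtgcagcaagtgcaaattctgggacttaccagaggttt
Their alpha chain had the same nucleotides in all 3 cells and no base outside the germline segments. The cell of replicate 2 had 1 Foxp3 UMI and those of replicate 1 had 0. The cell with 3583 UMIs and that of replicate 2 each carried another productive TRB chain as well.

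CDR3 length varied with the J segment in both replicates. Over all tagged cells but those with TRAV11-TRAJ18, alpha CDR3s averaged 13.7 and 13.5 amino acids (cell SD 1.27 and 1.34) and beta CDR3s 13.8 and 13.8 (SD 1.43 and 1.38). Among TRAJ with 20 or more rearrangements in each replicate, by the mean of the replicates TRAJ43 had the shortest CDR3s, 12.5 and 12.2 amino acids, and TRAJ32 the longest, 14.8 and 15.1. In replicate 1 alone TRAJ31 was the shortest and TRAJ52 the longest. Among TRBJ, TRBJ2-7 had the shortest, 13.2 and 13.2, and TRBJ2-2 the longest by the same mean, 14.5 and 14.4, with TRBJ1-6 the longest in replicate 2. By that mean, V segments ranged from TRAV13D-2 (12.95 and 12.77) to TRAV21-DV12 (14.6 and 14.4), and from TRBV20 (13.21 and 13.02) to TRBV5 (14.7 and 14.8). Across segments the mean lengths of the replicates correlated with r = 0.94 over 27 TRAJ, 0.96 over 12 TRBJ, 0.72 over 15 TRAV and 0.78 over 15 TRBV. Segments that left more germline J bases in the CDR3 had longer ones, with r = 0.96 over TRAJ and 0.82 over TRBJ, a relation of parts to their own sum.

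**Figure D5:**
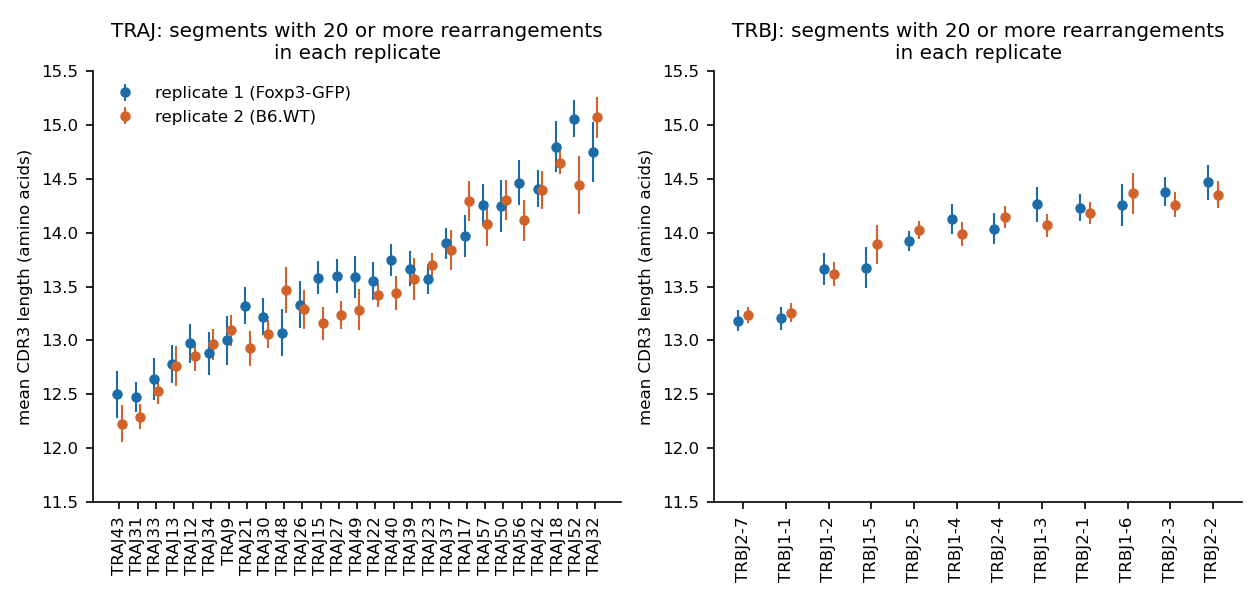
Mean CDR3 length in amino acids of distinct rearrangements by TRAJ (left) and TRBJ (right) segment, ordered by length, for replicate 1 (blue) and replicate 2 (orange); bars are standard errors over rearrangements and the axis does not start at 0. TRAJ43 lies at 12.5 and 12.2 and TRAJ32 at 14.8 and 15.1.

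Foxp3-positive cells had beta CDR3s of 13.7 and 13.7 amino acids, a mean of 13.68 ± 0.017 (SD, n = 2), and Foxp3-negative cells 13.8 and 13.8, a mean of 13.81 ± 0.036. The difference was -0.127 amino acids (exact permutation test over the 4 means, two-sided, p = 0.33, the smallest it can give). For alpha chains the means were 13.49 ± 0.0097 and 13.61 ± 0.126, a difference of -0.120 (exact p = 0.33). The alpha difference was -0.202 in replicate 1 and -0.0374 in replicate 2, and the beta one -0.0894 and -0.164. In the beta chain the bases that match neither germline V nor J numbered 9.14 and 9.09 in Foxp3-positive and 9.63 and 9.72 in Foxp3-negative cells (exact p = 0.33), and the matched V bases 13.9 and 13.8 against 13.6 and 13.5.

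Beta CDR3s of expanded clonotypes were 13.5 and 13.7 amino acids long and those of single ones 13.9 and 13.8, a difference of -0.246 (exact permutation test, two-sided, p = 0.33). It was -0.370 in replicate 1 and -0.122 in replicate 2. Alpha CDR3s differed by 0.0508 (exact p = 0.667), with means of 13.60 ± 0.135 and 13.55 ± 0.081. That difference turned to -0.00141 with any number of chains allowed and to -0.0268 with the TRAV11-TRAJ18 cells kept.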

How the data were processed

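The deposited contig tables list, per the file headers, V, J and C segment, productive status, CDR3 and UMI counts of each assembled contig. Gene and hashtag tables hold deposited raw counts. The submitters' processing notes name Cell Ranger 6.1.0, Seurat and mm10, and the gene tables' headers Cell Ranger 4.0.0 (replicate 1) and 6.0.0 (replicate 2). The version behind the contig tables is not given in the sources used here. The labels' protocol names a 3′ kit and the series design a 5′ kit with V(D)J enrichment. For replicate 1 the labels pair hashtag 7 with the sequence of hashtag 10, and the name decided. All values of replicate 1, and all differences between the replicates, depend on this choice. The cells that the sequence would pick instead were not examined. Coordinates are from GENCODE M21 (mm10), which lists 164 of the 165 segments; the fused name was given those of TRBV13-2.

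A cell needed its hashtag at 10 or more counts and 5 times the next. Each cell counted once per segment. Class comparisons needed 500 detected genes, under 10% mitochondrial UMIs, 1 TRB and 1 or 2 TRA chains. Cells per segment were summed by class and replicate and tested with edgeR 4.0.16 (quasi-likelihood, offset the locus total, at least 10 cells, Benjamini-Hochberg over all segments), with DESeq2 1.42.0 and others as alternatives. On simulated data of the same depth, the fit without the block recovered 0 of 8 segments changed 3-fold in either comparison. For 8-fold changes it recovered 5 of 8 (Foxp3) and 0 of 8 (expansion). Changes of such size could thus be missed, and 0 calls do not show equal use. Both classes of a replicate come from the same cells' library, so the replicate number pairs them; their deviations correlated with r = 0.22 over 143 segments (Foxp3) and 0.13 over 140 (expansion). Germline matching left out TRBV10 and TRAV7-2, whose median match was under 6 bases. Cells of other hashtags entered nothing. Named were the 5 most used TRAV, TRAJ and TRBV, every TRBJ, 3 segments per direction between replicates, in the class comparisons all called or else the 5 with the smallest p and 1 direction, fixed segments of invariant chains, and the largest and shared clonotypes. Members, lists and tests were chosen with earlier results of these data known. P-values measure only the spread between these samples.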

Additional observations from a re-analysis of the deposited data

Results flagged for a closer look

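The contig table of replicate 1 also lists non-productive contigs, which entered no comparison. The segment with the highest share in each locus is given, each above the floor of 3 counts (0.813% of 369 TRA and 1.83% of 164 TRB contigs), as many other segments were. TRBV23 was in 17 of 164 non-productive TRB contigs, 10.4% (6.16 to 16.1), against 0.498% of productive ones outside the TRAV11-TRAJ18 cells. TRAV12D-2 took 5.69% (3.56 to 8.57) against 2.21%, and TRAJ32 5.42% (3.34 to 8.25) against 1.83%. TRBJ2-7 took 20.7% (14.8 to 27.7) against 17.3%, and its interval includes the productive share. TRAV13N-4, chosen after its values were seen, took 3.79% against 0.152%. Replicate 2 lists productive contigs alone, so there is no replicate of these values.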

How the results depend on the processing

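The alternatives were hashtag margins of 2 and 20, any number of chains, TRAV11-TRAJ18 cells kept, no filter on cells or on low counts, TMM, DESeq2, TRAV summed by subgroup and other counting units, and for Foxp3 at least 2 UMIs or cells thinned to 1000 UMIs. With the replicate block, which reflects the pairing of classes within a library, edgeR again called 0 segments for Foxp3 and 0 for expansion, and it changed no other call but TRAV11. Every setting gave 0 calls, with 1 exception, the 1 call (TRAV11) with TRAV11-TRAJ18 cells kept and the replicate block. The 10 named segments kept their direction in all 73 and 71 alternative values for Foxp3 and expansion, which include each replicate alone where it held the segment in both classes, but not their size. The rule that chose them required the same direction in both replicates, so the sign in each replicate alone was fixed. The other settings reuse largely the same cells, so these counts are no independent support. Besides the values given with TRBV10, TRBJ2-3 and TRAJ31, TRAJ31 was at -0.71 at a hashtag margin of 2, -0.98 with any number of chains and -1.23 with clonotypes by TRB and TRA, and TRBJ2-3 at -2.43 at a margin of 20. TRAJ50, in 1 Foxp3-positive cell, was at -1.45 at a margin of 2 and -2.38 with any number of chains, and fitted values of segments with few or no cells in a class depend on the prior count. Alpha length of expanded clonotypes turned to -0.00141 (any number of chains) and -0.0268 (TRAV11-TRAJ18 cells kept). The cause was not tested. Agreement of TRAV moved to r = 0.79 without TRAV11-TRAJ18 cells, an alternative chosen after seeing the data, and to 0.81 with rearrangements counted once.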
